A study of Mus musculus with 8 samples.

Results

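The 10 genes described here are Cd80, Cd86, Cd83, Cd40, Itgax, Ccr7, Relb, Cd209a, Batf3 and Siglech, chosen by name as dendritic cell and costimulation genes. They were found through the array annotation, which named a gene for 12393 genes in all. Of the 10 genes 9 had at least 1 probe set, the set of probes that measures 1 transcript, and these 9 had 14 probe sets together. Siglech, a surface lectin of plasmacytoid dendritic cells, is not analysed here because no probe set was annotated to it. Cd80 had 4 probe sets, Cd86 and Cd40 had 2 each, and the other 6 genes had 1 each. In the test 12 of the 14 probe sets and all 9 genes passed the filter on dim signals. The 2 that did not pass were both of Cd80 and read under 20 on all 8 arrays.

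Dendritic cells take up antigen in tissues, carry it to lymph nodes and present it to T cells. A T cell responds fully only when it also receives costimulation. The ligands CD80 and CD86 deliver it through CD28, a costimulatory receptor on T cells, and CTLA4 restrains it. Signals through CD40 and the alternative NF-kappaB pathway, of which RELB is a part, promote the maturation of dendritic cells, and mature cells carry CCR7, the receptor that guides them to lymph nodes. Macrophages and B cells carry several of these molecules as well.

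Expression was measured on 8 Affymetrix Mouse430A arrays in cells sorted for CD45, which is found on cells of the blood lineages, and for Sca1, which mouse blood stem cells and some mature cells carry. All mice were C57BL/6 and 6 to 8 weeks old, and the cells fell into 4 groups of 2 arrays: bone marrow, uninjured muscle (no injury is given in its labels), muscle of mice without a transplant after injury with cardiotoxin, a venom peptide that kills muscle fibres, and the same injured muscle in mice given a bone marrow transplant. The labels used here state neither the time after injury nor the donor, nor which of the transplanted mouse's cells are its own. The labels do not say that the 2 arrays of a group come from separate animals, so the p-values rest on array-to-array spread that could be purely technical. The comparisons ask how the cells of muscle differ from those of marrow, how injury changes the muscle cells, and whether a transplant changes them after injury.

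Intensities are linear, scaled by the authors to the same trimmed mean on every array. Fold changes are on the log2(intensity + 4) scale, with the standard error (SE) of limma's moderated test. Adjusted p-values are from limma with Benjamini-Hochberg adjustment over all 16289 tested probe sets, and 0.05 is the threshold. Where a gene has several probe sets, the one with the highest mean stands for the gene. Ptprc, which encodes CD45, read 4924 to 6996 on the 8 arrays. The uninjured groups varied more between their 2 arrays than the injured groups did: the correlation of log2 values within a group was 0.929 for marrow and 0.837 for uninjured muscle, against 0.956 without and 0.957 with a transplant after injury. Controls differed between the injured and uninjured arrays as well. The spike control cre, which does not come from the cells, read 6892 to 9273 on the uninjured arrays and 14585 to 23545 on the injured ones. The spike control bioC overlapped, with 426 to 635 against 363 to 1802. The part of array handling in the injury differences cannot be told apart from the groups. The ratio of the 3' to the 5' probe set of Gapdh, which rises when RNA is broken or copied incompletely, was 10.7 to 46.9 on the bone marrow and uninjured muscle arrays and 0.808 to 0.882 on the 4 injured arrays. It separates the injured from the uninjured arrays completely, so its part in any injury difference cannot be told apart from the groups. The same ratio for actin was 1.18 to 1.23 on the injured arrays. For actin, uninjured muscle (19.0 and 10.1) also lay above marrow (5.75 and 5.68). For Gapdh these groups overlapped, with 46.9 and 13.6 against 24.4 and 10.7. The part of RNA quality in differences of uninjured muscle from marrow, among them those of Cd86 and Cd83, was not tested.

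Of the other dendritic cell markers, Clec9a had no probe set. Zbtb46, a transcription factor of conventional dendritic cells, read 26.8 and 38.4 in bone marrow and 83.0 and 83.1 in uninjured muscle. It read 41.4 and 9.67 in injured muscle and 11.1 and 18.4 in injured muscle with a transplant, where 3 of the 4 arrays were under the filter value of 38.4. The Zbtb46 difference of uninjured muscle from marrow did not pass (limma adjusted p = 0.318). Flt3, a receptor of dendritic cell progenitors, went the other way. It was lower in uninjured muscle (132 and 202) than in marrow (854 and 905), with a limma adjusted p of 0.0108. Xcr1 reached the filter value only in uninjured muscle (48.7 and 53.1). The summed intensity of 8 macrophage markers (Csf1r, Adgre1, Cd68, Fcgr1, Mertk, Cd14, Lyz2 and Itgam, all 8 measured) was 7864 to 9465 in bone marrow, 20141 to 27308 in uninjured muscle, 65373 to 70241 in injured muscle and 59167 to 63525 in injured muscle with a transplant. No macrophage marker was under the filter value on any injured array. The cells are a mixed population, so fewer cells of a type and less RNA per cell cannot be told apart in any of the results that follow.

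Cd86, a ligand of CD28 and CTLA4, was higher in all 3 muscle groups than in bone marrow. It read 193 and 176 in marrow, 587 and 815 in uninjured muscle, 1186 and 1104 in injured muscle and 553 and 559 in injured muscle with a transplant. Both bone marrow arrays lay below all 6 muscle arrays, and the untransplanted injured arrays lay above all the others. In uninjured muscle Cd86 was higher than in bone marrow, with means of 701 ± 161 against 184 ± 11.4 (SD, n = 2), a log2 fold change of 1.88 (SE 0.29, limma adjusted p = 0.00716). A second probe set of Cd86 read 84.2 and 63.2 in marrow, 299.7 and 199.9 in uninjured muscle, 774 and 813 in injured muscle and 479 and 618 with a transplant. It was higher in uninjured muscle than in bone marrow as well, with a log2 fold change of 1.69 (SE 0.34, limma adjusted p = 0.0256). The probe sets of Cd86 parted over injury: the second was higher in injured than in uninjured muscle, by a log2 fold change of 1.68 (SE 0.34, limma adjusted p = 0.0112), while the first had a log2 fold change of 0.72 (SE 0.29) and an adjusted p of 0.0963. Cd86 lies at chr16:36568956-36666158 (GRCm38.p6, as are all positions here).

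Cd80, the other ligand of CD28 and CTLA4, lies on the same chromosome at chr16:38457430-38495958. It read 42.3 and 49.4 in marrow, 84.3 and 111 in uninjured muscle, 141 and 216 in injured muscle and 140.5 and 176 in injured muscle with a transplant. The order of the groups was bone marrow, uninjured muscle and then both injured groups, which overlapped each other. Neither step of this order passed alone: the log2 fold change was 1.02 (SE 0.37, limma adjusted p = 0.178) from bone marrow to uninjured muscle and 0.83 (SE 0.37, limma adjusted p = 0.130) from uninjured to injured muscle. Over the whole span Cd80 was higher in injured muscle than in bone marrow, by a log2 fold change of 1.85 (SE 0.37, limma adjusted p = 0.00776). Injured muscle with a transplant was also higher than bone marrow, with a log2 fold change of 1.70 (limma adjusted p = 0.0104). The second probe set read 34.3 and 2.77 in marrow, 73.3 and 77.9 in uninjured muscle, 114 and 111 in injured muscle, and 95.2 and 112 with a transplant. Since both bone marrow arrays were below the filter value there, its rise to injured muscle is given as at least 2.74-fold (limma adjusted p = 0.0187).

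RefSeq's promoter table (GRCm38.p6), which spans 250 bases before to 50 after a start site, holds 5 of the 10 genes. The promoter of Cd80 is shown because Cd80 differed between groups, and that of Itgax because it carries the same motif. The first is at chr16:38458683-38458982 and the second at chr7:128129300-128129599, both on the plus strand. The Cd80 window lies inside the gene span given above, so its start site is not the first base of that span. Capitals mark the AP-1 motif TGANTCA, searched on both strands.
Cd80: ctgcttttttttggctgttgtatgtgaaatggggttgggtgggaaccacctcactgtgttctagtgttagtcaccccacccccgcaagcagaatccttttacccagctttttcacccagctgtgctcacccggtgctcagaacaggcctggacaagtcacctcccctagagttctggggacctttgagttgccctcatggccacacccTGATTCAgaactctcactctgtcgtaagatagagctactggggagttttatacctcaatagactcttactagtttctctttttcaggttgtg
Itgax: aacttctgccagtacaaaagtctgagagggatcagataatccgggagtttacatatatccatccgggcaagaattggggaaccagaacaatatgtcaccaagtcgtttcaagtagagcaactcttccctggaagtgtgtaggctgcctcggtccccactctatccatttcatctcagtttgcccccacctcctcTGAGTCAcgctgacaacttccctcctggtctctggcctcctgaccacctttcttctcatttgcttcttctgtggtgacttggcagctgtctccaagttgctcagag
The motif begins 42 bases before the start site in Cd80 and 56 bases before it in Itgax, and 7.79% of all 32544 promoters of this length hold it. A match describes these letters only.

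Cd83, a surface protein of mature dendritic cells and of activated B cells, read 1968 and 3419 in marrow, 5719.7 and 7222 in uninjured muscle, 4837 and 4711 in injured muscle and 3125 and 2961 in injured muscle with a transplant. Uninjured muscle was the highest group and did not overlap any other. Against bone marrow the log2 fold change was 1.31 (SE 0.27, limma adjusted p = 0.0291). From uninjured to injured muscle it was -0.43 (SE 0.27, limma adjusted p = 0.268). The call against bone marrow was lost without bone marrow replicate 1, without any 1 of the 4 injured arrays, with array weights and without an intensity trend (limma adjusted p 0.0661 to 0.103 over the arrays left out). In injured muscle with a transplant Cd83 was lower than in uninjured muscle, by a log2 fold change of -1.08 (SE 0.27, limma adjusted p = 0.0199).

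Cd40, the receptor through which helper T cells activate dendritic cells, macrophages and B cells, gave different results on its 2 probe sets. The first read 194 and 313 in marrow, 226 and 374 in uninjured muscle, 416 and 363 in injured muscle and 311 and 328 with a transplant. Its groups overlapped except that injured muscle lay above bone marrow and above the transplanted group, and none of the 6 pairs of groups passed the test. The second read 133 and 156 in marrow, 38.8 and 119 in uninjured muscle, 551 and 598 in injured muscle, and 461 and 366 with a transplant. Here all 4 injured arrays lay above all 4 uninjured arrays. Cd40 by this probe set was higher in injured than in uninjured muscle, 574 ± 33.0 against 78.7 ± 56.5 (SD, n = 2), a log2 fold change of 2.995 (SE 0.49, limma adjusted p = 0.00515). Against bone marrow the log2 fold change was 1.97 in injured muscle (limma adjusted p = 0.0180) and 1.49 with a transplant (limma adjusted p = 0.0480). Which part of the Cd40 transcript each probe set reads was not analysed here.

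**Figure D1:**
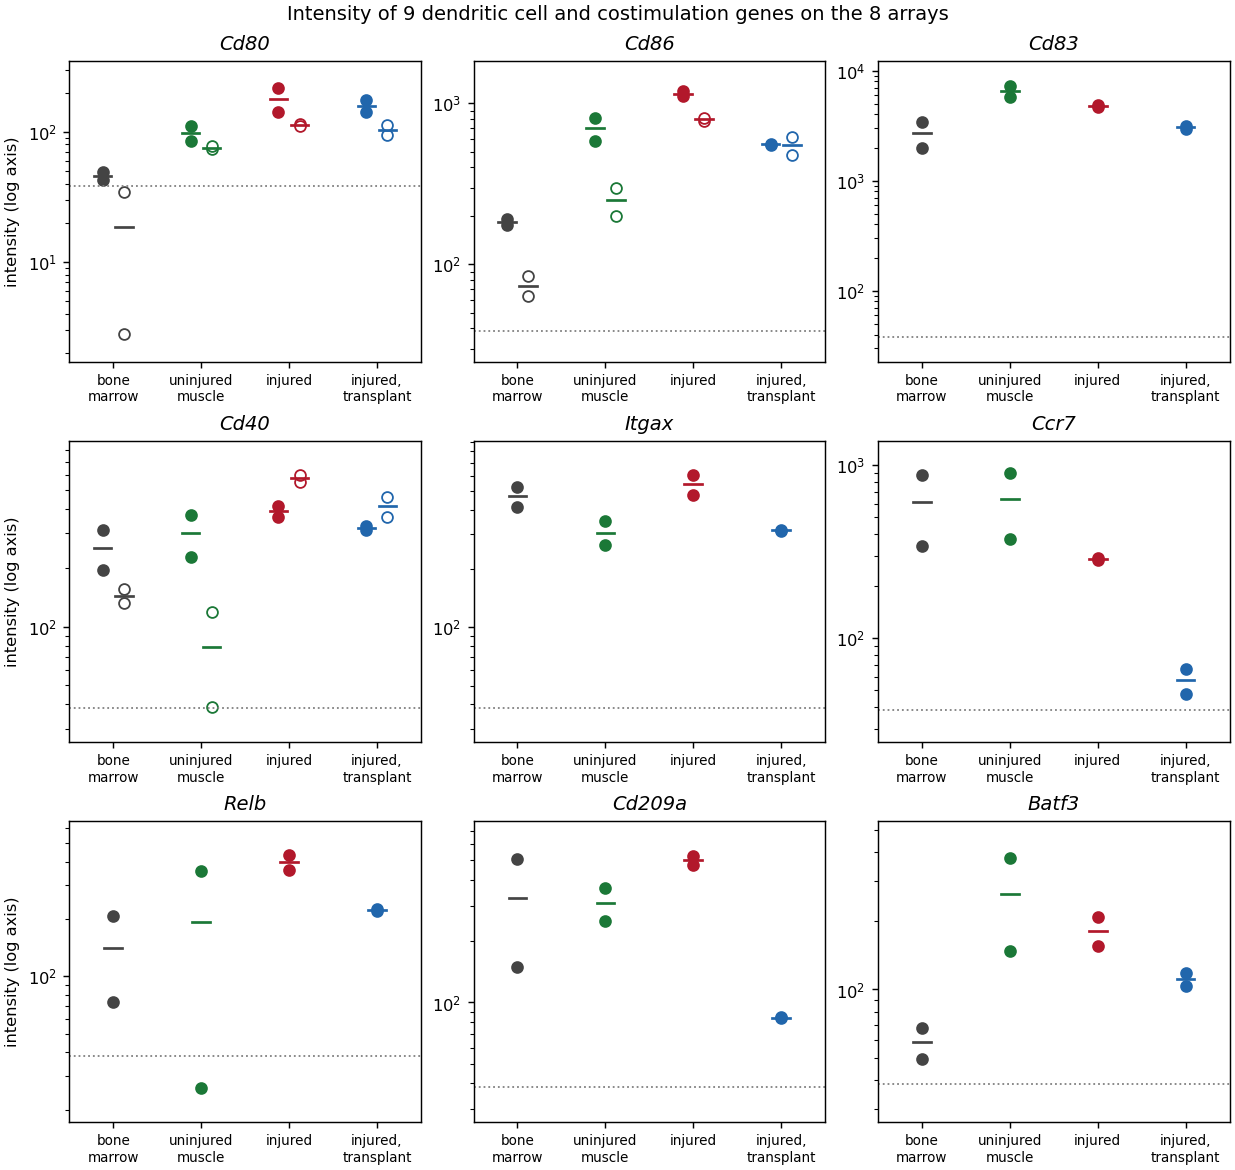
Intensity (log axis) of the 9 measured genes on each array, by group. Filled points are the probe set that stands for the gene, open points the second tested probe set, short bars the group means and dotted lines the filter value of 38.4. Cd86 rises from 184 in bone marrow to 1145 in injured muscle, and Ccr7 and Cd209a sit lowest in injured muscle with a transplant.

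Itgax encodes CD11c, the integrin chain used to mark dendritic cells, which some macrophages also carry. It read 414 and 528 in marrow, 263 and 349 in uninjured muscle, 479 and 606 in injured muscle and 312 and 317 in injured muscle with a transplant. Uninjured muscle and the transplanted group lay below bone marrow and below untransplanted injured muscle. None of the 6 pairs passed: the log2 fold change was -0.62 from bone marrow to uninjured muscle (limma adjusted p = 0.336) and 0.82 from uninjured to injured muscle (SE 0.31, limma adjusted p = 0.0865).

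Cd209a encodes a C-type lectin of monocyte-derived dendritic cells. It read 508 and 149 in marrow, 367 and 251 in uninjured muscle, 474 and 526 in injured muscle, and 83.6 and 84.7 in injured muscle with a transplant. The transplanted arrays lay below the 6 others, and the 2 bone marrow arrays were far apart. In the transplanted group Cd209a was lower than in bone marrow, by a log2 fold change of -1.67 (SE 0.54, limma adjusted p = 0.0460), and lower than in uninjured muscle, by -1.80 (limma adjusted p = 0.0354).

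Ccr7 read 342 and 881 in marrow, 378 and 908 in uninjured muscle, 293 and 283 in injured muscle, and 66.6 and 47.4 in injured muscle with a transplant. All 4 injured arrays lay below all 4 uninjured ones, and the transplanted arrays were the lowest. Between bone marrow and uninjured muscle the log2 fold change was 0.09 (SE 0.55), with replicate 2 above replicate 1 in both groups. In the transplanted group Ccr7 was lower than in bone marrow, with a log2 fold change of -3.20 (SE 0.55, limma adjusted p = 0.00394). It was lower than in uninjured muscle by a similar amount, -3.29 (SE 0.55, limma adjusted p = 0.00419). The change from uninjured to untransplanted injured muscle, -1.01 (SE 0.55), did not pass (limma adjusted p = 0.201). T cells carry Ccr7 too, and the summed intensity of 7 measured T cell markers was 3957 to 4521 in bone marrow, 1991 to 3574 in uninjured muscle, 530 to 575 in injured muscle and 297 to 349 with a transplant. On the transplanted arrays 3 and 5 of these 7 were under the filter value. B cells carry Ccr7 as well, and 4 of 5 tested B cell markers were lower in the transplanted group than in bone marrow (median log2 fold change -5.70) and than in uninjured muscle (-3.19). The part of T cells and B cells in the Ccr7 difference was not tested.

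Relb, the NF-kappaB subunit of the alternative pathway, was the least reproducible gene of the set. It read 73.8 and 207 in marrow, 25.8 and 357 in uninjured muscle, 361 and 435 in injured muscle, and 219.7 and 226 with a transplant. The uninjured muscle arrays lay on both sides of bone marrow, and the SE of every difference was 1.01. No pair of groups passed. The log2 fold change from uninjured to injured muscle was 1.95 (limma adjusted p = 0.182). Without uninjured muscle replicate 2, which leaves replicate 1 alone in that group, it was 3.75. In that fit the log2 fold change of uninjured muscle against bone marrow was -2.10. Relb read 25.8 on this remaining array, under the filter value. Its ratios for broken or incompletely copied RNA were the highest of all arrays, 46.9 for Gapdh and 19.0 for actin. The part of RNA quality in these Relb values was not tested. Without uninjured muscle replicate 1 the sign against bone marrow turned, to 1.496.

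Batf3, a transcription factor needed by dendritic cells that cross-present antigen, read 49.5 and 67.8 in marrow, 147 and 375 in uninjured muscle, 208 and 155 in injured muscle, and 118 and 104 in injured muscle with a transplant. All 6 muscle arrays lay above both bone marrow arrays. In uninjured muscle the log2 fold change against bone marrow was 1.95 (SE 0.47), with an adjusted p of 0.0529 that just missed the threshold. Leaving out uninjured muscle replicate 1 gave 2.61 and passed (limma adjusted p = 0.00558). In injured muscle Batf3 was higher than in bone marrow, by a log2 fold change of 1.57 (SE 0.47, limma adjusted p = 0.0385).

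The promoters of Batf3 and Cd209a are shown for these differences, at chr1:191098164-191098463 on the plus strand and chr8:3748935-3749234 on the minus strand. Capitals mark the PU.1 core GAGGAA, searched on both strands.
Batf3: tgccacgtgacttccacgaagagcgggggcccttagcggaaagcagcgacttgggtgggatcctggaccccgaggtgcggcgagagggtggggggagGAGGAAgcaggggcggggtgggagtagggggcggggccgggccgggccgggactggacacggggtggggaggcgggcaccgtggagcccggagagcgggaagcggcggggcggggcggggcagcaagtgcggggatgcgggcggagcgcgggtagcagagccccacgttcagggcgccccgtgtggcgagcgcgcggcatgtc
Cd209a: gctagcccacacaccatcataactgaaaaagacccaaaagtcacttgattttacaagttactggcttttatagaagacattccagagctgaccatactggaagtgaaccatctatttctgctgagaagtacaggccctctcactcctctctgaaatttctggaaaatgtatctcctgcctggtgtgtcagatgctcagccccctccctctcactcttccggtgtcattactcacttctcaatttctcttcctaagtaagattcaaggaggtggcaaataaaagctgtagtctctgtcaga
The core begins 153 bases before the start site in Batf3, and 28.1% of all promoters hold it. The promoter of Siglech, not shown, holds it too, on the opposite strand, beginning 4 bases before the start site. The Cd209a window holds neither motif searched, which says only that these letters are not in it.

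In the comparison of uninjured muscle with bone marrow, 2 of the 9 genes were higher (Cd86 and Cd83) and 0 lower. Over all 9486 tested genes 5.72% were higher and 1.38% lower, and the median log2 fold change was 0.23 over the 9 genes and -0.06 over all genes. Macrophage markers moved the same way, 6 of 8 higher, as did 6 of 8 fibroblast and endothelial markers and 5 of 6 muscle fibre markers. Their part in the differences of Cd86 and Cd83 was not tested. When only these 4 arrays were fitted 0 of 9 passed in limma, with an adjusted p of 0.132 for Cd86, beside 1.99% of all genes higher and 0.127% lower.

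In the comparison of injured with uninjured muscle, 0 of the 9 genes passed in limma by the probe set that stands for each, against 8.48% of all genes higher and 14.9% lower. Cd86 and Itgax, 2 genes, had an unadjusted p under 0.05, both as higher, beside 13.9% of all genes higher at that p. The log2 fold change was above 0 for 6 of the 9, as it was for 41.5% of all genes, with a median of 0.71 over the 9 and -0.25 over all. With the mean of a gene's probe sets 2 of the 9 were higher, Cd86 and Cd40, but the share of all genes was not computed for that fit. Without uninjured muscle replicate 2, which leaves replicate 1 alone in that group, the log2 fold change was 0.96 for Cd86, 1.02 for Itgax and 3.75 for Relb. All 8 macrophage markers were higher after injury. All 7 neutrophil markers were lower, with sums of 16185 to 28968 in uninjured and 355 to 365 in injured muscle, and so were 4 of 5 tested B cell markers, 5 of 7 T cell markers and 5 of 6 muscle fibre markers. The part of these cells in the Cd86 and Cd40 differences was not tested.

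Against bone marrow, injured muscle had 4 of the 9 genes higher (Cd80, Cd86, Cd83 and Batf3) and 0 lower, beside 12.4% of all genes higher and 16.9% lower. The transplanted group had 2 higher than bone marrow (Cd80 and Cd86) and 2 lower (Ccr7 and Cd209a), beside 11.8% and 19.2%. Against uninjured muscle it had 0 higher and 3 lower (Cd83, Ccr7 and Cd209a), beside 10.2% and 20.4%. The second probe sets of Cd86 and Cd40 were higher in that comparison, by log2 fold changes of 1.14 (SE 0.34, limma adjusted p = 0.0363) and 2.52 (SE 0.49, limma adjusted p = 0.00711). The first probe sets gave -0.31 for Cd86 and 0.13 for Cd40 and did not pass. The call of the second Cd86 probe set was lost without uninjured muscle replicate 2 or any 1 injured array (limma adjusted p 0.0629 to 0.205), and that of Cd40 without transplanted replicate 1 (0.0575). These comparisons share arrays with one another.

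**Figure D2:**
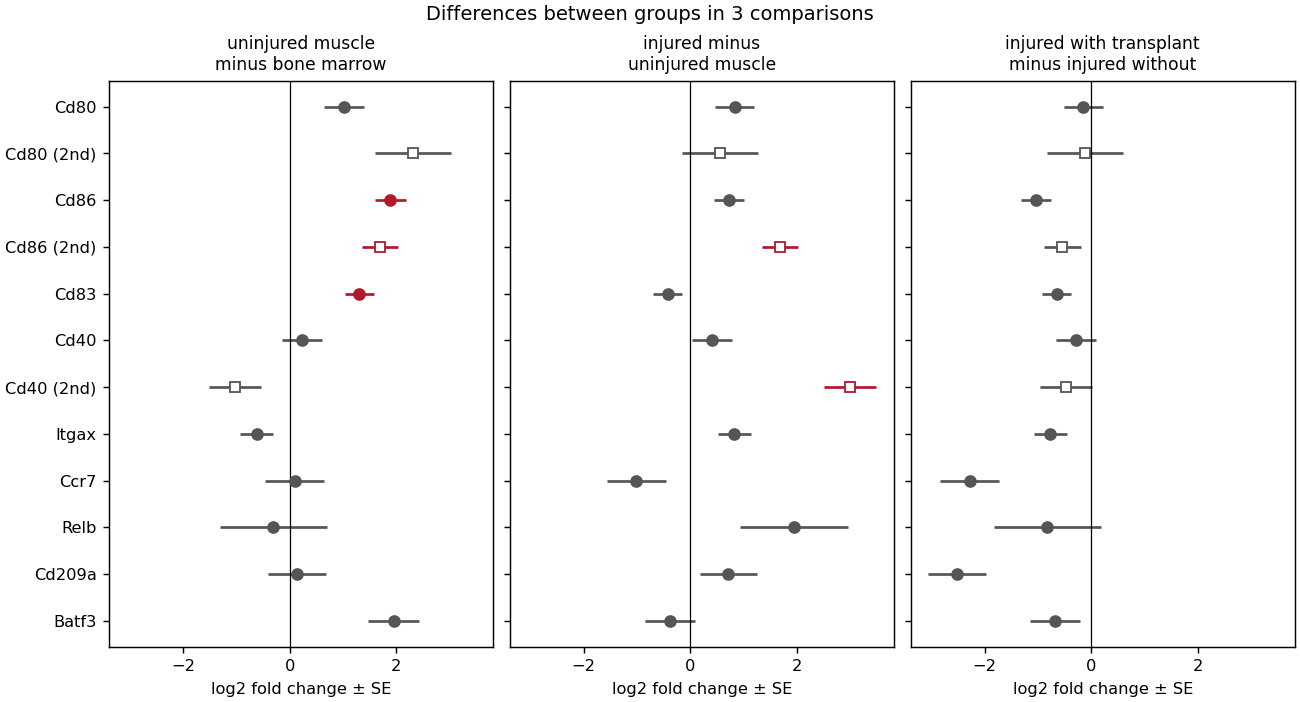
Log2 fold change with its SE (bars) for each tested probe set in 3 comparisons, fitted on all 8 arrays. Circles stand for the gene, open squares are second probe sets, and red marks a limma adjusted p under 0.05. Cd86 and Cd83 pass in the first comparison, the second probe sets of Cd86 and Cd40 in the middle one, and none in the last, where all 9 circles lie below 0.

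Between the injured groups, all 9 genes had a log2 fold change below 0 with a transplant, while 50.1% of all genes did, and the median was -0.77 against -0.0013 over all genes. The widest gaps were those of Cd209a, with a log2 fold change of -2.52 (SE 0.54, limma adjusted p = 0.135), and Ccr7, with -2.28 (SE 0.55, limma adjusted p = 0.183). Cd86 had -1.04 (SE 0.29, limma adjusted p = 0.250). Except for Cd80, whose arrays overlapped, both transplanted arrays read below both untransplanted ones for every gene. The share of all genes whose arrays separated in this way was not computed, so this is a description only. In limma on all 8 arrays 0 of the 9 passed, beside 0.0422% of all genes higher and 0.285% lower. An unadjusted p under 0.05 was found for 5 of the 9, beside 7.2% of all genes lower and 2.38% higher at that p.

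This outcome turned on which arrays set the spread. When limma was fitted only on the 4 injured arrays, 6 of the 9 genes were lower with a transplant, beside 5.45% of all genes lower and 2.49% higher. They were Cd209a (adjusted p = 5.53e-05), Ccr7 (0.000626), Cd86 (0.00122), Cd83 (0.0106), Relb (0.0235) and Itgax (0.0249). Batf3 (adjusted p = 0.153), Cd40 (0.392) and Cd80 (0.808) did not pass in that fit, whose fold changes are the same. For Cd80 the 95% interval of the log2 fold change was -0.73 to 0.44 there, which leaves room for a fall as large as that of Cd83, -0.65. With array weights, which give noisier arrays less influence, 3 of the 9 were lower (Cd86, Ccr7 and Cd209a), beside 4.52% of all genes lower and 1.2% higher. Ccr7 was the 1 gene that was lower with uninjured muscle replicate 1 or replicate 2 left out of the fit, with a limma adjusted p of 0.0463 and 0.0464.

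**Figure D3:**
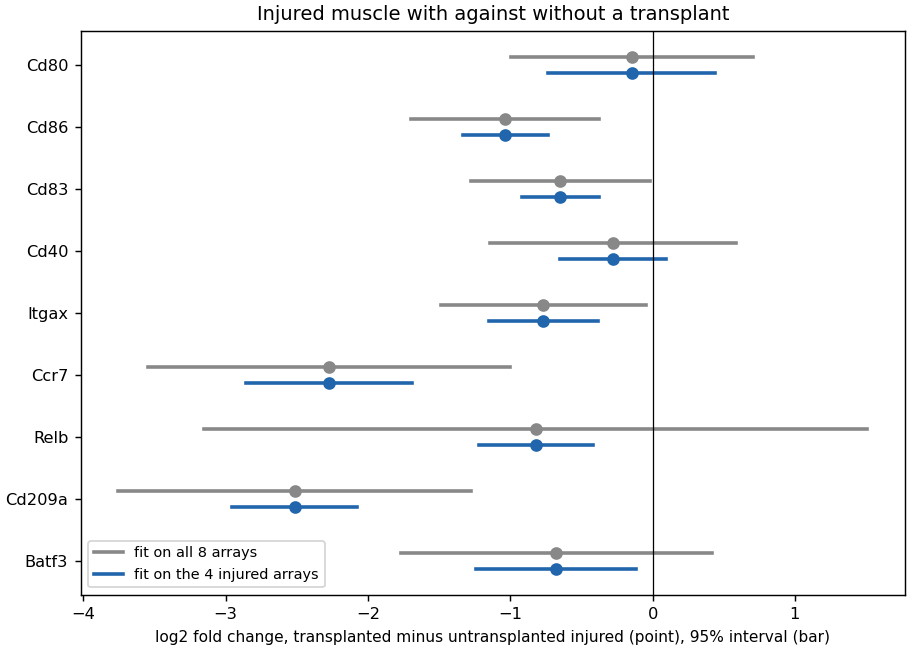
Log2 fold change of injured muscle with against without a transplant (points) and its 95% interval (bars) for 9 genes, with the spread taken from all 8 arrays (grey) or from the 4 injured arrays (blue). The points are the same in both fits, from -2.52 for Cd209a to -0.15 for Cd80, and the blue bars are shorter for all 9 genes.

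The summed intensities of some other cell markers differed between the injured groups too, but few single markers passed. In limma on all 8 arrays 0 of 8 fibroblast and endothelial, 0 of 7 T cell, 0 of 7 neutrophil and 0 of 5 tested B cell markers passed. Of 6 muscle fibre markers 2 were lower with a transplant. The summed intensity of 8 fibroblast and endothelial markers was 18817 to 19032 without and 3750.0 to 3944 with a transplant. The fibroblast genes Col1a1, Col1a2, Col3a1, Dcn and Pdgfra read lower with a transplant on both arrays. The endothelial genes did not share this: Kdr read 70.2 and 72.0 without and 171 and 161 with, and Pecam1 and Cdh5 did not separate. T cell markers were 530 to 575 without and 297 to 349 with, and neutrophil markers 355 to 365 without and 584 to 645 with. These sums lie near the filter value: 4 or 5 of the 7 neutrophil markers and 2 to 5 of the 7 T cell markers were under it on each injured array. Cd4 and Thy1 fell with the T cell sum, while Cd3d went the other way, 57.1 and 40.9 without and 79.5 and 86.8 with. Of 6 measured B cell markers Pax5, Ms4a1, Ebf1 and Cd79a were under the filter value on all 4 injured arrays, and Cd79b read 119 and 106 without and 76.7 and 40.01 with a transplant. Blnk, which macrophages also use, made up most of the summed B cell signal there, with 1433 and 1578 without and 1560 and 1657 with. The part of these cells in the differences of the 9 genes was not tested. Muscle fibre markers summed to 788 to 874 without and 169.6 to 174 with a transplant.

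Among the 6 pairs of groups of each gene 13 passed in all: 3 for Cd86, 3 for Cd83, 2 each for Cd80, Ccr7 and Cd209a, 1 for Batf3, and 0 for Cd40, Itgax and Relb. Of all tested genes, up to 12.4% were higher (injured muscle against bone marrow) and up to 20.4% lower (transplanted injured against uninjured muscle) in a single pair. A share over the 6 pairs together was not computed, so the 13 are a description only. When the 4 groups of a gene are put in order of their means, the 9 genes have 27 neighbouring pairs. Of these 2 passed, a share that was not computed over all genes. They were Cd86, where bone marrow was lower than the next group, injured muscle with a transplant, and Cd209a, where the transplanted group was lower than uninjured muscle. Of the 25 pairs that did not pass, 12 had overlapping arrays, and in 13 the arrays did not overlap, a share that was not computed over all genes. For 4 of the 13 the 95% interval of the log2 fold change left out 0: Ccr7 between the injured groups (-3.55 to -1.004), Cd86 between injured and uninjured muscle (0.063 to 1.38), Cd80 between uninjured muscle and bone marrow (0.17 to 1.87) and Cd83 between the injured groups (-1.28 to -0.021). These intervals are not adjusted for the number of probe sets tested. The highest group mean over the lowest was 11.3-fold for Ccr7, 6.21-fold for Cd86, 5.95-fold for Cd209a, 4.45-fold for Batf3 and 3.89-fold for Cd80. It was 1.77-fold for Itgax. For Cd40 it was 1.53-fold on the first probe set, with 0 pairs passing, and 7.29-fold on the second, with 4 pairs passing.

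Leaving out 1 array at a time showed which of these calls were lost with single arrays. Leaving out an array of a group outside the comparison keeps the fold change and alters only the spread shared by all groups. Cd86 stayed higher in each of the 3 muscle groups than in bone marrow in all 8 such fits. Ccr7 stayed lower in the transplanted group than in bone marrow and than in uninjured muscle in all 8. The second probe set of Cd40 stayed higher in injured than in uninjured muscle in all 8. The second probe set of Cd86 lost its call after injury without injured replicate 1 or 2 (limma adjusted p = 0.0756 and 0.0797), and its call in uninjured muscle against bone marrow without either bone marrow array or any injured array (0.0653 to 0.126).

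Against bone marrow, Cd80 did not pass in injured muscle without injured replicate 2 (limma adjusted p = 0.0710), nor in the transplanted group without bone marrow replicate 1 (0.0507) or transplanted replicate 2 (0.0784). Its second probe set did not pass without either array of the injured group compared (0.0854 to 0.105). Batf3 in injured muscle did not pass without any 1 of the bone marrow or injured arrays (0.0698 to 0.196). Cd83 in injured muscle did not pass without bone marrow replicate 1 or any 1 injured array (0.0721 to 0.174), and in the transplanted group against uninjured muscle without transplanted replicate 1 or 2 (0.0842 and 0.1001). The second probe set of Cd40 did not pass in injured muscle without any 1 of the bone marrow or untransplanted injured arrays (0.0621 to 0.0997), nor in the transplanted group without any 1 bone marrow or injured array (0.0859 to 0.2096).

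Cd209a in the transplanted group against bone marrow had a log2 fold change of -0.80 without bone marrow replicate 1 (limma adjusted p = 0.192), and did not pass without any 1 injured array (0.0816 to 0.165). Against uninjured muscle it did not pass without uninjured muscle replicate 1 or any 1 injured array (0.0657 to 0.142).

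Over the 8 arrays some of the 9 genes ran together. Pearson's r of the log2 values was 0.901 between Cd83 and Batf3, 0.882 between Cd40 and Relb and 0.864 between Cd80 and Cd86, and lowest, -0.54, between Cd80 and Ccr7. The arrays fall into 4 groups of 2, so these values, given as a description over 8 arrays, mix differences between and within groups. Among 9477 other genes the patterns most like that of Cd86 were those of Nnmt (r = 0.983), Clec4n (0.981) and Hfe (0.980), and those most like Cd83 were S100a1 (0.975), Cyb5r3 (0.974) and Fxyd2 (0.968). Clec4n, a lectin receptor of myeloid cells, read 205 and 123 in marrow, 711 and 954 in uninjured muscle, 2403 and 1896 in injured muscle, and 847 and 991 with a transplant. As with Cd86, both transplanted arrays of Clec4n lay below both untransplanted ones and above bone marrow.

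The counts of 5 related lists are read beside the shares of all genes given above, 5.72% higher and 1.38% lower in uninjured muscle against bone marrow, and 8.48% and 14.9% after injury. Of 22 other tested dendritic cell genes, 1 was higher and 2 lower in uninjured muscle than in bone marrow. Cd209b, a lectin related to Cd209a, read 173 and 278 in uninjured muscle against 4.09 and 4.88 in bone marrow, at least 5.41-fold higher (limma adjusted p = 0.00511). Flt3, the growth factor receptor of dendritic cell progenitors, was lower, 167 ± 49.9 against 879 ± 36.5 (SD, n = 2; log2 fold change -2.40, limma adjusted p = 0.0108). Irf8, a transcription factor of the dendritic and monocyte lineages, was lower with a log2 fold change of -2.04 (limma adjusted p = 0.0117). After injury 4 were higher and 5 lower. Cd209b was lower again, at least 5.41-fold (limma adjusted p = 0.00443), and its relative Cd209d had a log2 fold change of -2.15 (limma adjusted p = 0.00552). Cd24a, a surface protein of many blood cells, had -2.80 (limma adjusted p = 0.000900). Cd209a, with 0.71 after injury, did not share the direction of Cd209b and Cd209d.

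Of 16 dendritic cell maturation genes 5 were higher and 0 lower in uninjured muscle than in bone marrow. They included the cytokine Il6 (482 ± 160 against 25.3 ± 3.98 (SD, n = 2), at least 11.5-fold, limma adjusted p = 0.000901) and the chemokine Ccl22 (284 ± 38.6 against 24.0 ± 16.7 (SD, n = 2), at least 6.79-fold, limma adjusted p = 0.00511). Fscn1, an actin-bundling protein of mature dendritic cells, was higher by a log2 fold change of 3.26 (SE 0.38, limma adjusted p = 0.00227). Of the fibroblast and endothelial markers 6 of 8 were higher in the same comparison, with a median log2 fold change of 4.99 and sums of 647 to 820 in bone marrow and 8294 to 30005 in uninjured muscle, and their part in these differences was not tested. After injury 1 was higher and 3 lower. The chemokines Ccl17 and Ccl22 fell, Ccl17 at least 4.58-fold (limma adjusted p = 0.00598) and Ccl22 by a log2 fold change of -2.26 (limma adjusted p = 0.0144), and Cd200, a ligand that restrains myeloid cells, had -2.44 (limma adjusted p = 0.0118). Cd83 had a log2 fold change of -0.43 that did not pass.

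Of 18 other costimulation genes and receptors 1 was higher in uninjured muscle than in bone marrow. It was Tnfsf9, the ligand of 4-1BB, a costimulatory receptor on T cells (log2 fold change 2.61, SE 0.42, limma adjusted p = 0.00924). After injury 4 were higher and 6 lower. Tnfrsf9, which encodes 4-1BB itself, was lower, at least 5.10-fold (limma adjusted p = 0.00177), as was Ctla4, the inhibitory receptor for CD80 and CD86, with a log2 fold change of -2.61 (SE 0.44, limma adjusted p = 0.00585). Havcr2, an inhibitory receptor of T cells and myeloid cells, was higher, with 2.15 (SE 0.35, limma adjusted p = 0.00509). T cell markers fell with injury as well, 5 of 7, and their part in the receptor differences was not tested.

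Of 15 NF-kappaB genes, partners and regulators of Relb, 1 was higher in uninjured muscle than in bone marrow and 3 were higher and 2 lower after injury. The inhibitor Tnfaip3 read 32.1 and 42.9 in uninjured muscle and 1168 and 1712 in injured muscle, a log2 fold change of 5.11 (SE 0.51, limma adjusted p = 0.00114). Nfkbie, another inhibitor, was higher by 1.82 (limma adjusted p = 0.0153). Nfkbiz, a nuclear regulator, was higher in uninjured muscle than in bone marrow by 1.24 (limma adjusted p = 0.0165) and lower after injury by -1.23 (limma adjusted p = 0.00781), but the mean of its probe sets gave 0.59 after injury and did not pass.

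Siglech itself was not measured. Of 14 other plasmacytoid dendritic cell genes tested, 0 were higher and 6 lower in uninjured muscle than in bone marrow, among them Ccr9, a gut homing receptor, with a log2 fold change of -3.75 (SE 0.33, limma adjusted p = 0.000692). Dntt, which lymphoid progenitors also use, had -3.62 (SE 0.46, limma adjusted p = 0.00325), and Cox6a2, a respiratory chain subunit, -3.12 (SE 0.38, limma adjusted p = 0.00278). After injury 4 were higher and 4 lower. Bst2, an interferon-inducible gene, was higher by 3.81 (limma adjusted p = 0.00306) and the inhibitory receptor Lair1 by 2.28 (limma adjusted p = 0.00331), while Dntt fell at least 8.21-fold (limma adjusted p = 0.00213). Macrophages use Bst2 and Lair1 too, and their part in these differences was not tested.

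Some of these named calls were lost when 1 array, in or outside the groups compared, was left out. Against bone marrow, Flt3, Irf8 and Nfkbiz did not pass without bone marrow replicate 1 or 2 (limma adjusted p 0.0513 to 0.0857), Nfkbiz also without untransplanted injured replicate 1 or 2 (0.0562 and 0.0565), and Tnfsf9 without bone marrow replicate 2 (0.0684). After injury, Ccl22, Nfkbie and Nfkbiz did not pass without injured replicate 1 or 2 (0.0549 to 0.105), nor did Cd200 (0.0921) and Ctla4 (0.0537) without injured replicate 1. Other calls rested on the fit. With only the 4 arrays compared, Fscn1 (0.0505), Ccl22 (0.0524), Flt3 (0.0738), Irf8 (0.0768), Tnfsf9 (0.101) and Nfkbiz (0.137) did not pass against bone marrow, nor did Cd200 (0.0526) and Nfkbie (0.0653) after injury. With array weights Cd209b (0.0841), Flt3 (0.0693) and Nfkbiz (0.0673) did not pass against bone marrow.

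With against without a transplant 0 of the 85 tested genes of these 5 lists passed in limma on all 8 arrays, and 22 had an unadjusted p under 0.05, beside 9.58% of all genes. On the 4 injured arrays alone 6 of the 85 were higher and 14 lower, beside 2.49% and 5.45% of all genes. Of the 14, 6 were maturation genes (Birc3, Icam1, Fscn1, Il6, Traf1 and Socs2), so that this list had 6 of 16 lower and 2 higher. The summed intensity of the fibroblast and endothelial markers was 18817 to 19032 without and 3750.0 to 3944 with a transplant, a fall in the fibroblast genes and not in Kdr. The part of these cells in the difference of the maturation genes was not tested. Fscn1 read 703 and 709 without and 218 and 169 with a transplant. Both transplanted arrays lay far below both untransplanted ones, as for Cd209a and Ccr7.

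**Figure D4:**
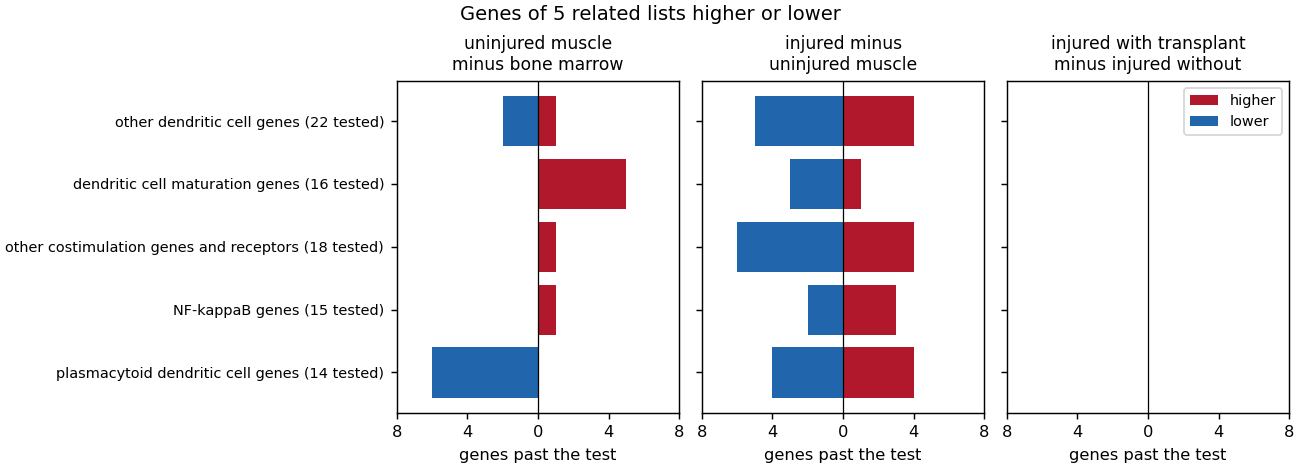
Number of genes higher (right, red) and lower (left, blue) at a limma adjusted p under 0.05 in 5 lists of related genes, for 3 comparisons on all 8 arrays. Maturation genes are 5 higher and 0 lower in uninjured muscle against bone marrow, plasmacytoid genes 0 higher and 6 lower, and the last panel is empty because 0 passed.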

How the data were processed

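RNA of CD45+/Sca1+ cells was measured on 8 arrays, and the authors deposited linear intensities, 1 for each probe set. Each array of the deposited table has a trimmed mean, without the lowest and highest 2%, of about 250 (checked: 250.09 to 250.12). The submitters' processing notes name GCOS, with no version or role, and how probes were summarised is not given in the sources used here. Labelling was one-cycle with biotin from 1 µg of RNA, per the labels' protocols.

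Of 22690 probe sets 64 controls were left out. Probe sets with at least 2 arrays at or above 38.4, the 40th percentile of all values, were tested (16289, or 9486 of 12393 named genes). The annotation named 1 gene for 20380 probe sets, several for 691 and none for 1555, and 20351 symbols were matched through gene identifiers to the RefSeq table. Values under 1 were set to 1, and 4, the 10th percentile, was added before log2. One mean per group was fitted on all 8 arrays in limma 3.58.1 (R 4.3.3) with an intensity trend, two-sided (4 residual and 4.07 prior degrees of freedom). The fit was tested on simulated data. Precision is limited by having 8 arrays, with a median SE of 0.45 per log2 fold change. If neither array of the lower group reached 38.4, the fold was computed against that value and written "at least". This value is a filter and not a detection limit.

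The 10 genes, the 5 related lists, the marker lists and the tests were chosen with earlier results of these data known. Named from each list were, per comparison, up to 3 genes past the threshold with the smallest p, with Ptprc, and for genes of the set called in 1 of the 3 comparisons the 3 most correlated genes. Other names (Zbtb46, the markers, the genes of the 4-array fit) were chosen after their values were seen. Ly6a, which encodes Sca1, and Siglech had no annotated probe set and are not analysed here. The labels do not tie replicate numbers across groups to an animal, batch or day. Alternatives were other scalings, pseudocounts and filters, no trend, array weights, the 4 arrays of a comparison alone, the mean of a gene's probe sets, a replicate block, and each array left out.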

Additional observations from a re-analysis of the deposited data

How the results depend on the processing

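With 2 arrays a group, 1 array can decide a call. Called genes of the set, in uninjured muscle against bone marrow, were 1 with array weights, 1 without an intensity trend, 0 with only the 4 arrays compared, and 1 to 3 with each array left out (1 without bone marrow replicate 1 or any 1 injured array, Cd83 being lost). After injury they were 2 with the mean of probe sets and 0 to 3 with each array left out (3 without uninjured muscle replicate 2). For the transplant they were 3 with array weights, 6 with only the 4 arrays compared, and 0 to 1 with each array left out (1 without either uninjured muscle array). The other scalings, pseudocounts and filters kept these counts at 2 or 3, 0 and 0. In the other comparisons the calls of Cd209a in transplanted muscle against bone marrow (adjusted p = 0.0728 with quantile normalization, 0.0645 with median centring) and of Cd83 in untransplanted injured muscle against bone marrow (0.166 with quantile normalization, log2 fold change 0.56 in place of 0.88) were lost. Called genes of the 5 lists were 16, 36 and 0 in the 3 comparisons. In the first they were 10 with array weights, 5 with the 4 arrays compared and 9 to 28 with each array left out (9 and 10 without bone marrow replicate 1 or 2, 28 without uninjured muscle replicate 2). In the second they were 19 with the 4 arrays compared and 14 to 47 with each array left out (14 and 16 without injured replicate 1 or 2). In the third they were 16 with array weights, 20 with the 4 arrays compared, 1 with a pseudocount of 1, 1 with the mean of probe sets, and 0 to 5 with each array left out (5 without either uninjured muscle array). The 13 called pairs of groups were 6 to 20 with each array left out (20 without uninjured muscle replicate 2, 6 to 8 without any 1 injured array). The cause of these changes was not tested. For the fits with an array left out or with the mean of probe sets, the share of all genes called was not computed. Their counts are therefore not results particular to the set or the lists.

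With the replicate number as a block, called genes of the set were 2, 0 and 0, those of the lists 16, 37 and 0, and called pairs 13, and no named gene changed its call. The deviations of same-numbered arrays correlated at 0.313 between bone marrow and uninjured muscle and at -0.03 to 0.0031 in the other 5 pairs of groups. Same-numbered arrays of bone marrow and uninjured muscle thus deviated partly together. What they share is not given in the labels and was not tested.

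Signs turned for values that had not passed, and for Nfkbiz. With the mean of probe sets Cd40 was -0.40 in uninjured muscle against bone marrow, and Nfkbiz 0.59 after injury. In uninjured muscle against bone marrow with each array left out, Cd40 was -0.12 to 0.59 (below 0 without bone marrow replicate 1 or uninjured muscle replicate 2, as was Ccr7, -0.59 to 0.77), Relb -2.10 to 1.496 and Cd209a -0.73 to 1.01 (both turned without bone marrow replicate 2 or uninjured muscle replicate 1). Batf3 after injury was -1.05 to 0.28 (turned without uninjured muscle replicate 2). For the transplant Cd80 was -0.44 to 0.15 (turned without untransplanted replicate 2 or transplanted replicate 1) and its second probe set -0.23 to 0.0035 (turned without transplanted replicate 1).

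Quantile normalization moved the median log2 fold change of all genes in transplanted injured against uninjured muscle from -0.31 to -0.18, and the share of higher calls between the injured groups from 12.9% to 25% (2 higher, 6 lower against 4 and 27). All 9 genes stayed below 0 in that comparison under every scaling tried.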

Other observations

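The ligand and receptor of the 4-1BB pathway went opposite ways with injury. Tnfsf9, the ligand, was higher in injured than in uninjured muscle (1300.3 ± 43.0 against 317 ± 174, SD, n = 2; log2 fold change 2.14, SE 0.42, limma adjusted p = 0.00977), while Tnfrsf9, the receptor, was lower (14.9 ± 4.999 against 212 ± 2.08, SD, n = 2). With a transplant the arrays read 503 and 589.9 for the ligand and 82.9 and 153 for the receptor. For both genes the transplanted arrays lay between the uninjured and the untransplanted injured arrays. This pair was chosen after its values were seen.

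Both chains of the GM-CSF receptor, a growth factor receptor of dendritic cells and macrophages, were higher in injured than in uninjured muscle. Csf2ra had a log2 fold change of 3.02 (SE 0.76, limma adjusted p = 0.0243) and Csf2rb one of 3.09 (SE 0.60, limma adjusted p = 0.00941). The uninjured muscle arrays were far apart for both, 71.5 and 527 for Csf2ra and 17.3 and 83.8 for Csf2rb. Of 14 plasmacytoid genes tested 4 were higher and 4 lower (Dntt, Ly6d, Pacsin1 and Cox6a2) after injury, when all 8 macrophage markers were higher. Irf7 and Tlr7 were among those higher, by 2.90 (SE 0.60, limma adjusted p = 0.0120) and 1.39 (SE 0.42, limma adjusted p = 0.0434). The part of macrophages in these differences was not tested. Csf2ra, Csf2rb, Irf7 and Tlr7 were also chosen after their values were seen.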
